A study of Homo sapiens with 4 samples.

Results

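The regions described here were GATA2 ChIP-seq peaks at the promoters of long non-coding RNAs (lncRNAs) in K562 cells, an established human chronic myeloid leukaemia line. A peak was included when its midpoint lay within 1 kb of the transcription start site (TSS) of a GENCODE lncRNA transcript and more than 3 kb from the TSS of every protein-coding transcript. The rule kept 826 of 31777 peaks from asynchronous cells (2.60%) and 54 of 1648 peaks from mitotic cells (3.28%). Of the asynchronous peaks, 1316 met the lncRNA limit and 490 of them were dropped for lying within 3 kb of a protein-coding TSS. Asynchronous cells were not arrested. Mitotic cells were arrested with nocodazole, stained for the mitotic phospho-epitope MPM-2 and sorted in several rounds that were pooled, with contamination by asynchronous cells below 10% per the labels. Both were fixed with disuccinimidyl glutarate followed by formaldehyde and precipitated with one GATA2 antibody. Each condition had 1 library, so no difference between asynchronous and mitotic cells had a replicate check and no p-values were computed. The lists held peak positions without heights or read counts, and the depth of the libraries is unknown here. Intervals below are 95% intervals that cover counting error over peaks only and treat peaks as independent.

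GATA2 is a zinc finger transcription factor of haematopoietic stem and progenitor cells that binds DNA at strings built around GATA. Mitotic bookmarking is the name given to the retention of a transcription factor at some of its sites on condensed mitotic chromosomes. LncRNAs are transcribed from promoters of their own, many of which lie in or near enhancers or run antisense to protein-coding genes, and some host microRNAs or small nucleolar RNAs in their introns. A peak counted here as bookmarked if it overlapped any interval of the other condition by 1 base or more.

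The sequences below show the range found under mitotic GATA2 peaks at lncRNA promoters. All coordinates are hg38, the sequences are the reference plus strand from 5′ to 3′, and capitals mark GATA matches. The strings searched for as a GATA match were AGATAA and its relative AGATAG, together with TGATAA and its relative TGATAG, on either strand, so that a match on the other strand reads as its reverse complement. The first 4 peaks also hold the composite string that GATA factors share with basic helix-loop-helix partners, CTG and GATAA with 8 bases between them, and there the partner letters CTG are in capitals too, which read CAG on the other strand. They lie at the antisense lncRNAs SMIM2-AS1 and SRD5A3-AS1 and at a pair of lncRNA genes without a symbol.
SMIM2-AS1, chr13:44143302-44143491: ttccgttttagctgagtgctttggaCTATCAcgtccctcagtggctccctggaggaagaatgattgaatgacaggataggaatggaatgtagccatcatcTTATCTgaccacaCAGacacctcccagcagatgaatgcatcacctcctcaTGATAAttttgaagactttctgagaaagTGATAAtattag
SRD5A3-AS1, chr4:55386945-55387193: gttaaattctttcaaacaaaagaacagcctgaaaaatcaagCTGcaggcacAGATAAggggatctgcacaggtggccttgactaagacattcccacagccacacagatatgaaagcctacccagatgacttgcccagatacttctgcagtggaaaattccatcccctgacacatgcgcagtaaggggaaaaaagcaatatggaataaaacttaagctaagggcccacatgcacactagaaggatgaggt
ENSG00000232884, chr21:14753888-14754103: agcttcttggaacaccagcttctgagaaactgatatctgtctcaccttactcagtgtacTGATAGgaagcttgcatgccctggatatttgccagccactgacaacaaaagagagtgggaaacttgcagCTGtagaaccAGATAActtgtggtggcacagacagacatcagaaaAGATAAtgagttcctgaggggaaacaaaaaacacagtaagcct
ENSG00000258558, chr14:30822054-30822291: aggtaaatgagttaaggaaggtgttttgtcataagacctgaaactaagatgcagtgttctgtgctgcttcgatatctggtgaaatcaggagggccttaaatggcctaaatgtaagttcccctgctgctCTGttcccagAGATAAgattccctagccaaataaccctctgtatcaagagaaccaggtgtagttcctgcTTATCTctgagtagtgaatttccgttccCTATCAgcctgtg

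The next peaks show a promoter with many matches, a peak centred on a start site, and the sequence end of the range. HECW2-AS1, antisense to the ubiquitin ligase gene HECW2, had the mitotic lncRNA promoter peak with most matches, 8 in 635 bp. Its central 300 bases are shown. The mitotic peak of LINC02772 was centred 2 bp from a TSS of that gene, an internal one. MIR4458HG, the host of a microRNA, carried 1 of the 2 mitotic peaks at lncRNA promoters that overlapped no asynchronous peak, and it holds no GATA match. Per the study, peaks found only in mitosis were few and low in read coverage. ENSG00000251434 was bookmarked and also holds no match in its mitotic peak.
HECW2-AS1, chr2:196259690-196259989: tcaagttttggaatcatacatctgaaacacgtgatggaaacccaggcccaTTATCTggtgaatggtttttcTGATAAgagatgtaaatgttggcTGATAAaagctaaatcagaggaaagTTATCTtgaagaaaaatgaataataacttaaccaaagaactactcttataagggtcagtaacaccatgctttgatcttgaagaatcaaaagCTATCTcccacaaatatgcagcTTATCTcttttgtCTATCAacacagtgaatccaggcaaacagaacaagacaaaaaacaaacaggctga
LINC02772, chr1:157274751-157275001: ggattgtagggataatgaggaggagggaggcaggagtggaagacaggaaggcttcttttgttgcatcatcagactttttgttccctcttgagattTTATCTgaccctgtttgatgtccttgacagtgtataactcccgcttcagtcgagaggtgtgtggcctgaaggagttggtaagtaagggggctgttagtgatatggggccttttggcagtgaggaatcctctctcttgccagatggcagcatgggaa
MIR4458HG, chr5:8450550-8450832: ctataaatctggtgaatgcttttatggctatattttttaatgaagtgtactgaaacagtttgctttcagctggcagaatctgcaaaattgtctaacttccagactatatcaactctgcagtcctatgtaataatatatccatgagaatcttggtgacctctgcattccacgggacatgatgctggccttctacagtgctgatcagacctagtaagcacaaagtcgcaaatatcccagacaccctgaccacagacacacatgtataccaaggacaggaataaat
ENSG00000251434, chr4:31349982-31350150: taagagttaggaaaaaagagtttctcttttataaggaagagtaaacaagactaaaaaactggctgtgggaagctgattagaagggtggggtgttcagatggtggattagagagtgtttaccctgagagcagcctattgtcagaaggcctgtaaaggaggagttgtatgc

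GATA2 peaks were densest close to lncRNA start sites in both lists. Among bases more than 3 kb from protein-coding TSSs, asynchronous peak midpoints numbered 34.1 per megabase within 200 bp of a lncRNA TSS (exact Poisson interval 30.4 to 38.2). The density was 13.8 per megabase at 1 to 2 kb (12.6 to 15.0) and 11.6 at 10 to 50 kb (11.4 to 11.9). Within 1 kb the density was 20.6 per megabase at lncRNA TSSs (19.2 to 22.02), below the 33.5 found within 1 kb of protein-coding TSSs (32.2 to 34.9). In the mitotic list the density was 2.75 per megabase within 200 bp (1.78 to 4.06), 0.670 at 1 to 2 kb (0.429 to 0.997) and 0.589 at 10 to 50 kb (0.538 to 0.644). In both lists the interval within 200 bp lay above those at 1 to 2 kb and at 10 to 50 kb.

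Peaks fell on both sides of the start site. Of the 826 asynchronous lncRNA promoter peaks, 426 were upstream and 399 downstream of the nearest lncRNA TSS (48.3%, exact binomial interval 44.8 to 51.8), and 1 was centred on it. The 200 bp just upstream held 37.9 asynchronous peaks per megabase (32.4 to 44.02) and the 200 bp just downstream 30.4 (25.6 to 35.9), and these intervals overlapped. In mitosis the same bins held 17 peaks (3.77 per megabase, 2.19 to 6.03) and 8 peaks (1.75, 0.756 to 3.45). The TSS lay inside 318 of the asynchronous peaks. The nearest TSS was the 5′-most one of its gene or lay within 1 kb of it for 636 peaks, and lay farther inside the gene for 190. Peaks just inside the limit of the rule, from 900 to 1000 bp of the TSS, numbered 43 with a median width of 390 bp and 0 bookmarked, and the 54 just outside, up to 1100 bp, had 388.5 bp and 1 bookmarked. Relative to protein-coding genes, 609 peaks were intergenic, 162 lay in a gene on the opposite strand, 52 in one on the same strand and 3 in genes on both strands.

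**Figure D1:**
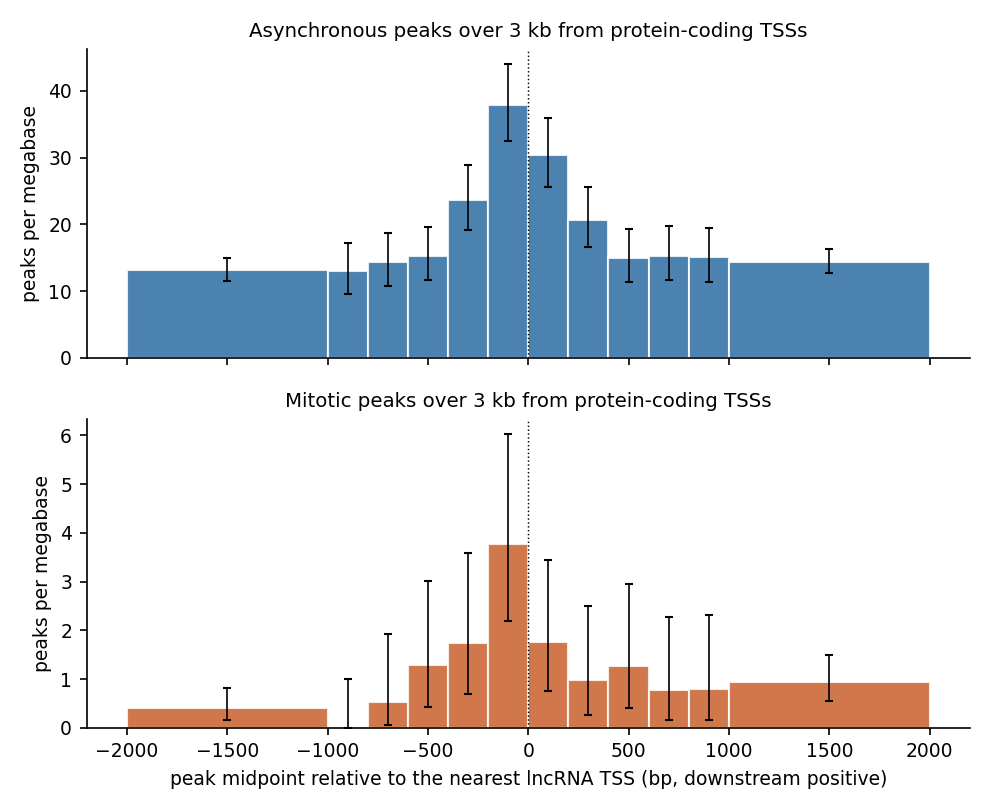
Density of GATA2 peak midpoints (peaks per megabase, vertical axis) by position relative to the nearest lncRNA TSS in bp, asynchronous above and mitotic below, counting only bases over 3 kb from protein-coding TSSs. Bars are densities and lines 95% exact Poisson intervals. The highest bar in both panels is the 200 bp upstream of the TSS, at 37.9 and 3.77 peaks per megabase.

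Of the asynchronous lncRNA promoter peaks, 51 of 826 were bookmarked (6.17%, 4.63 to 8.04), against a background of 5.04% over all asynchronous peaks. All other asynchronous peaks were bookmarked at 5.00%, which left a difference of 1.17 percentage points (Newcombe interval -0.299 to 3.04) that was within counting error. With a limit of 500 bp from the lncRNA TSS the difference was 2.32 points, beyond counting error (0.405 to 4.82). With a reciprocal overlap of 50% the share bookmarked was 2.66%, which cannot be set against the 5.04% counted at 1 shared base. The difference from all other asynchronous peaks at that overlap was within counting error. The shares were 5.02% at core promoters of protein-coding genes (midpoint within 1 kb of a TSS) and 5.15% at peaks away from both kinds of promoter. From the mitotic side, 52 of 54 lncRNA promoter peaks overlapped an asynchronous peak (96.3%, 87.3 to 99.5), against 97.5% over all mitotic peaks. In 51 of these 52 the asynchronous peak was itself a lncRNA promoter peak. The exception was ENSG00000228793 on chromosome 6, whose mitotic midpoint lay 980 bp from the TSS and whose asynchronous partner was centred outside the limit of the rule.

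Bookmarked lncRNA promoter peaks were wide. The median width of the 826 peaks was 392.5 bp (quartiles 276 and 538), close to the 378 bp of all other asynchronous peaks (267 and 517). The 51 bookmarked peaks had a median of 701 bp (579 and 804.5) and the 775 found in asynchronous cells only had 380 bp (270.5 and 510). Other bookmarked asynchronous peaks were as wide, with a median of 673 bp. All asynchronous peaks were divided by width into 4 classes of about equal size. In the narrowest class (77 to 267 bp) 1 of 189 lncRNA promoter peaks was bookmarked, in the next class 1 of 199, and from 379 to 518 bp 7 of 210. In the widest class, from 519 bp, 42 of 228 were bookmarked (18.4%, 13.6 to 24.1). Other asynchronous peaks of that class were bookmarked at 16.1%, a difference of 2.30 points within counting error (-2.27 to 7.90).

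A start site inside the peak went with bookmarking at lncRNA promoters, mainly in the widest class. Of the 318 peaks that covered their TSS, 36 were bookmarked (11.3%, 8.06 to 15.3), and of the 508 that did not, 15 (2.95%, 1.66 to 4.82). Wider peaks cover more TSSs, and these groups had median widths of 474.5 and 350 bp. Within the widest class the shares were 32 of 132 (24.2%, 17.2 to 32.5) and 10 of 96 (10.4%, 5.11 to 18.3), a difference of 13.8 points (3.74 to 23.1). Median widths there were still 683.5 and 609 bp. From 379 to 518 bp the order was the other way, with overlapping intervals. There 2 of 82 peaks covering their TSS were bookmarked (2.44%, 0.297 to 8.53) and 5 of 128 others (3.91%, 1.28 to 8.88). Each of the narrower classes held 1 bookmarked peak, which covered its TSS. The same split of core promoter peaks of the widest class gave 14.7% and 13.4%, a difference of 1.27 points (-4.64 to 7.24). The intervals of both differences overlapped, and the contrast between lncRNA and core promoters was not tested. These splits were made after the overall values were known, and the part of width in them was not tested beyond the class.

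**Figure D2:**
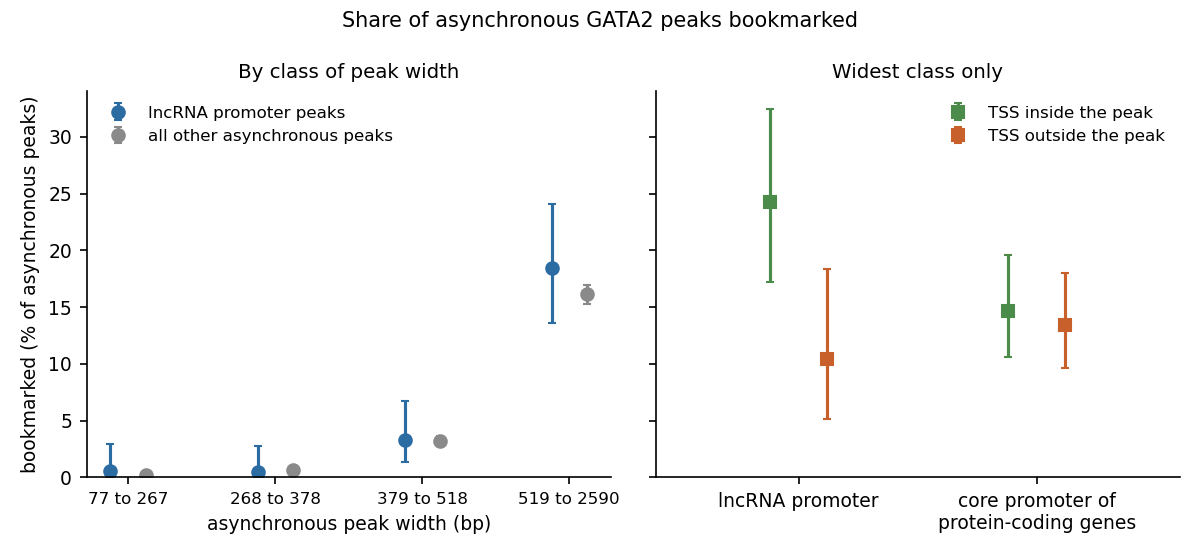
Share of asynchronous GATA2 peaks bookmarked (%, vertical axis), at left by class of peak width in bp for lncRNA promoter peaks and all other peaks, at right in the widest class for peaks with and without the TSS inside. Points are shares and lines 95% exact binomial intervals. The widest class reached 18.4% at lncRNA promoters, and there 24.2% with the TSS inside and 10.4% without.

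Mitotic peaks were narrower than the asynchronous peaks they overlapped. The 54 mitotic lncRNA promoter peaks had a median width of 293 bp, with the lowest at 133 and the highest at 738, and other mitotic peaks had 298 bp. Of the 52 with an asynchronous partner, 51 were narrower than it and 45 lay wholly inside it. The ratio of mitotic to asynchronous width ranged from 0.194 to 1.02 with a median of 0.399. Width is set by the peak caller and depends on depth, and its relation to GATA2 occupancy was not tested.

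The widest mitotic lncRNA promoter peak was at ENSG00000290081 on chromosome 1, 738 bp against 747 bp in asynchronous cells. It lay 8485 bp from PDZK1IP1, a gene that neighbours the haematopoietic regulator gene TAL1. HECW2-AS1 followed with 635 bp against 702 bp. HISLA on chromosome 14 had 568 bp against 934 bp. ENSG00000289933 on chromosome 9 is 1176 bp long and had 2 mitotic peaks, of 588 and 473 bp, centred 52 bp upstream and 636 bp downstream of its TSS. It also had 3 asynchronous peaks of 537, 595 and 667 bp, of which the latter 2 were bookmarked. SMANTIS on chromosome 2, a lncRNA that takes part in chromatin remodelling, had a mitotic peak of 447 bp inside an asynchronous peak of 886 bp. At the other end, LINC00656 on chromosome 20 had 1433 bp in asynchronous cells, the widest bookmarked lncRNA promoter peak, and 308 bp in mitosis.

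**Figure D3:**
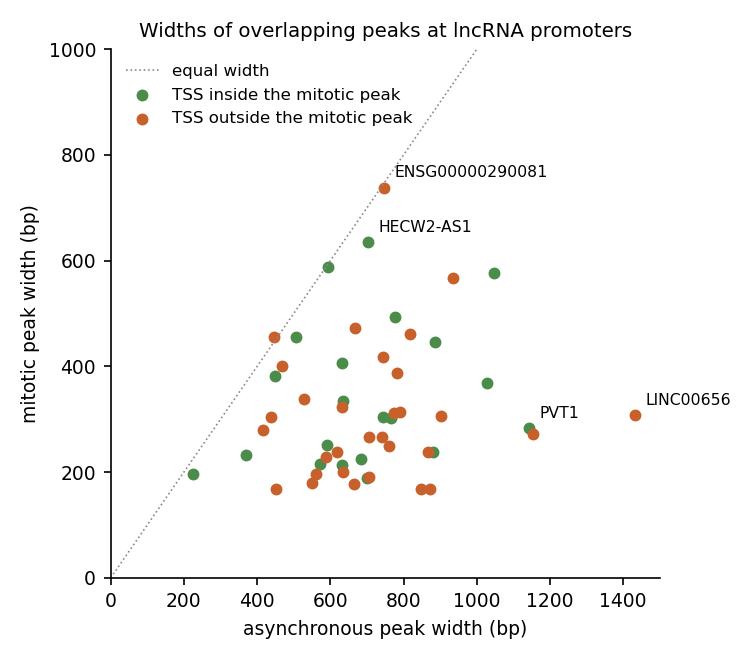
Width of each mitotic lncRNA promoter peak (bp, vertical axis) against the asynchronous peak it overlaps (bp, horizontal axis) for the 52 overlapping mitotic peaks, coloured by whether the TSS lies inside the mitotic peak. The dotted line marks equal width. Of the 52 points 51 lie below the line, and LINC00656 is farthest right at 1433 bp.

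The following mitotic lncRNA promoter peaks are named for their nearest protein-coding genes, a choice made after their positions were known. ENSG00000288524 on chromosome 2 lay 10761 bp from GYPC, which encodes the red cell membrane protein glycophorin C, and had a mitotic peak of 323 bp with 3 GATA matches. ENSG00000230615 on chromosome 1 lay 4712 bp from SLC6A9, a glycine transporter gene, and had a mitotic peak of 382 bp with 2 matches. ENSG00000289057 and LINC01132 on chromosome 1 both had IRF2BP2, a transcriptional corepressor gene, as the nearest, at 8968 and 113791 bp, with mitotic peaks of 279 and 213 bp. LINC02026 on chromosome 3, 132815 bp from the Notch target gene HES1, had the mitotic lncRNA promoter peak of highest GC content, 67.9% over 312 bp. No expression was measured, so none of these distances says which gene a peak acts on.

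The 826 asynchronous peaks belonged to 739 lncRNA genes, 470 of which had no symbol. Of these genes 666 had 1 peak, 64 had 2, 7 had 3, LINC00426 had 4 and PVT1 had 7. Among the 14812 lncRNA genes with a TSS beyond 3 kb of protein-coding TSSs, 729 had an asynchronous peak (4.92%, 4.58 to 5.28) and 52 a mitotic one (0.351%, 0.262 to 0.460). In all, 53 genes had a mitotic peak and 50 of them an asynchronous lncRNA promoter peak as well. LincRNA genes (symbols beginning LINC) had an asynchronous peak in 131 of 2196 cases (5.97%, 5.01 to 7.04) and antisense genes in 68 of 1087 (6.26%, 4.89 to 7.86).

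Host genes of microRNAs had such a peak in 10 of 74 cases (13.5%, 6.68 to 23.5) and host genes of small nucleolar RNAs in 4 of 20 (20%, 5.73 to 43.7). Both intervals overlapped those of the LINC and antisense genes, and no difference between these classes was tested. Genes with more start sites had a peak more often, and the rule, which counts a peak near any start site, also gives them more bases. The share was 3.79% for genes with 1 TSS (3.43 to 4.18), 5.60% with 2 to 4 (4.82 to 6.47), 7.86% with 5 to 9 (6.26 to 9.72) and 15.3% with 10 or more (12.5 to 18.4). The microRNA hosts had a median of 5 start sites and the small nucleolar RNA hosts 9.5, against 1 over all genes, and the part of this number in their shares was not tested.

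Of a list of 40 well-known lncRNAs, 38 were annotated under their symbol and 12 had an asynchronous lncRNA promoter peak, against 4.92% of all eligible lncRNA genes and 15.3% of those with 10 or more start sites, to which 10 of the 12 belonged. MALAT1, an abundant nuclear lncRNA, had 2, of 450 and 717 bp with 3 and 5 GATA matches, both at internal start sites. UCA1 on chromosome 19, known from bladder cancer, had one of 1104 bp with 3 matches, among the 10 widest of all 826. MIR223HG on chromosome X, the host of the myeloid microRNA miR-223, had one of 509 bp with 2 matches, and MIR17HG on chromosome 13, the host of the miR-17-92 cluster, one of 278 bp with 1 match. DLEU1 and DLEU2 on chromosome 13, in a region often deleted in chronic lymphocytic leukaemia, had 2 (188 and 784 bp) and 1 (494 bp). CRNDE, CYTOR, MIR181A2HG and MIR99AHG had 1 each, of 385, 238, 451 and 298 bp. The remaining members of the list were CCDC26 and PVT1. Of the 22 asynchronous lncRNA promoter peaks of the list 1 was bookmarked, at PVT1, a share near the background of 5.04%.

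Of 48 haematopoietic and cell cycle regulators, 9 were the nearest protein-coding gene of an asynchronous lncRNA promoter peak, as were 678 of all 19689 protein-coding genes (3.44%). The list was chosen with earlier results known, so its count is a description. MYB-AS1 lay 9555 bp from MYB, the progenitor transcription factor gene, with a peak of 481 bp and 4 matches, and ENSG00000234084 lay 115463 bp from it with 336 bp and 2 matches. A peak of 333 bp with 2 matches lay 3050 bp from CEBPA, a myeloid regulator gene, just outside the distance at which the rule would have dropped it. LINC00885 lay 60627 bp from TFRC, the transferrin receptor gene, with a peak of 294 bp and no match. Peaks of 338, 223, 552 and 183 bp had RUNX1, ETV6, CCND3 and HLF as their nearest genes, at 87737, 93769, 17714 and 60108 bp. Of the 16 peaks nearest to these regulators 1 was bookmarked, the one at PVT1 nearest to MYC, a share near the background of 5.04%.

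PVT1, a lncRNA gene next to MYC with 132 annotated start sites on chromosome 8, had more asynchronous lncRNA promoter peaks than any other gene. Its 7 peaks lay from 65328 to 254377 bp from its 5′-most TSS and measured 427, 180, 364, 211, 183, 1144 and 1033 bp in that order. The 1144 bp peak held 8 GATA matches and was bookmarked, with a mitotic peak of 283 bp holding 4 matches. Its neighbour of 1033 bp, centred 254377 bp from the TSS with 6 matches, was not, and the other 5 peaks held from 0 to 2 matches. The whole PVT1 gene held 22 asynchronous peaks, 2 of them bookmarked. CCDC26, another lncRNA gene on chromosome 8, with 76 start sites, had 3 lncRNA promoter peaks of 182, 470 and 573 bp and 19 peaks in its body, none of them bookmarked. LINC00426 on chromosome 13 had 4 peaks of 665, 352, 353 and 496 bp within its gene, none bookmarked.

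**Figure D4:**
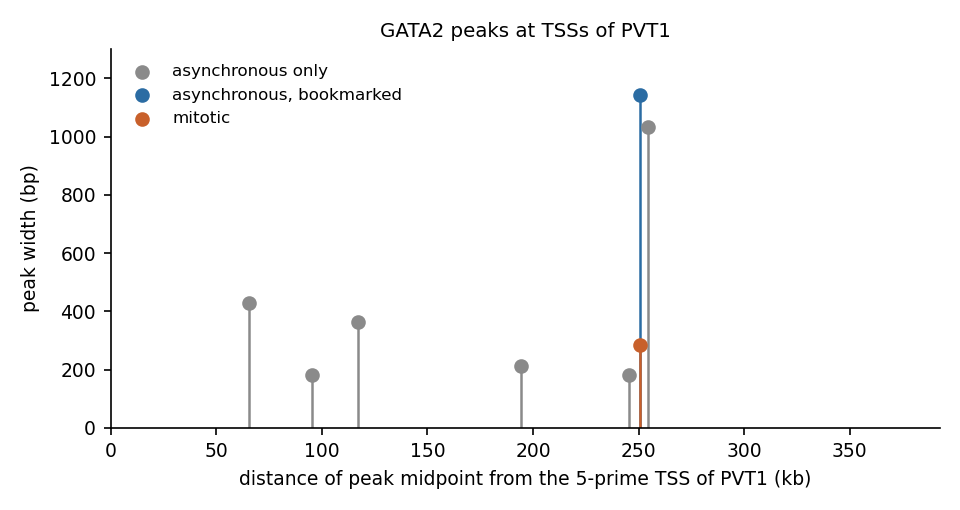
GATA2 peaks at start sites of PVT1, with peak width (bp, vertical axis) against the distance of the peak midpoint from the 5′-most TSS (kb, horizontal axis, spanning the gene). Grey marks peaks in asynchronous cells only, blue the bookmarked asynchronous peak and orange the mitotic peak. The bookmarked peak is the widest of the 7, at 1144 bp.

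GATA matches were less frequent at lncRNA promoters than at all other peaks together, and more frequent than at core promoters taken as a whole. At least 1 match lay in 729 of 826 asynchronous peaks (88.3%, 85.9 to 90.4), against 93.1% of all other asynchronous peaks, a difference of -4.85 points (-7.24 to -2.80). Core promoter peaks had 82.6% and lay 5.63 points lower than lncRNA promoter peaks (2.84 to 8.18). Among peaks with a ratio of observed to expected CpG up to 0.6 the shares were close, 89.8% at lncRNA promoters and 89.3% at core promoters. Above that ratio they were 73.0% and 69.5%. The part of CpG content in the difference was not tested. Peaks away from both kinds of promoter had 94.2%. The share grew with distance from the lncRNA TSS, from 81.8% within 100 bp through 85.9% and 89.6% to 92.8% beyond 500 bp. By width class the lncRNA promoter peaks held a match in 75.1%, 85.4%, 93.3% and 96.9%, and the other peaks in 86.6%, 92.1%, 95.6% and 98.2%. The difference lay beyond counting error in the narrowest class (-11.5 points, -18.1 to -5.79) and the next (-6.67, -12.3 to -2.40), but not in the wider ones.

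**Figure D5:**
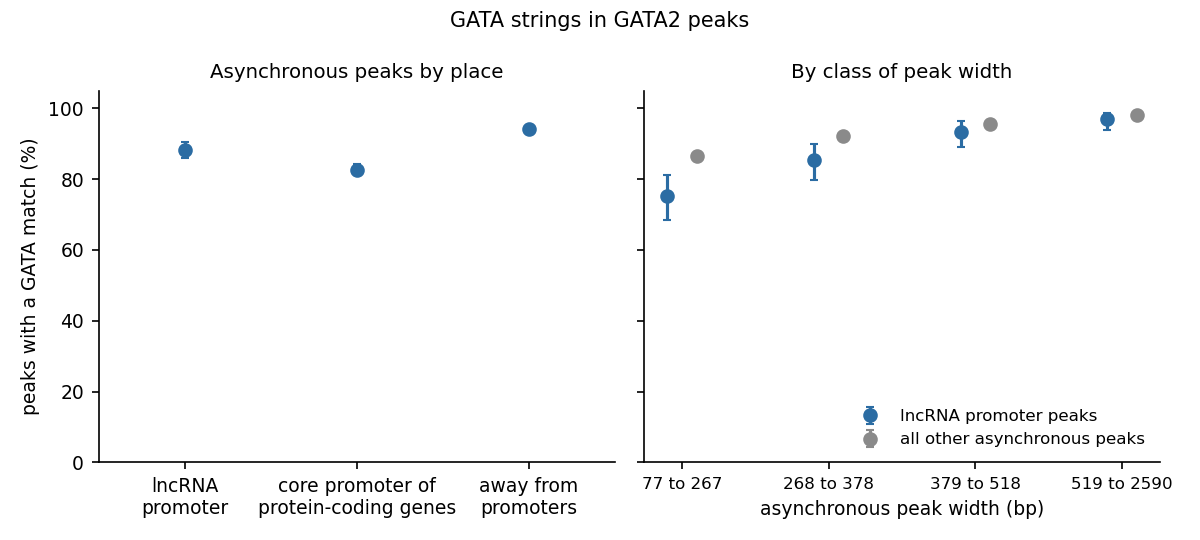
Share of asynchronous GATA2 peaks with at least 1 GATA match (%, vertical axis), at left by place and at right by class of peak width in bp for lncRNA promoter peaks and all other peaks. Points are shares and lines 95% exact binomial intervals. lncRNA promoters lie between core promoters and peaks away from promoters, at 88.3%, 82.6% and 94.2%.

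Both lists were far richer in GATA matches than lncRNA promoters at large. In windows from 250 bp upstream to 50 bp downstream of each eligible lncRNA TSS, 300 bp long, 36.8% of 36587 held a match. The central 300 bp held one in 86.0% of asynchronous and 87.0% of mitotic lncRNA promoter peaks. The composite string was in 0.793% of these windows, in 6.54% of the asynchronous and in 11.1% of the mitotic peaks (6 of 54, 4.19 to 22.6). All other mitotic peaks, at their full width, held it in 13.2%, which lay inside that interval. The windows lay at the TSS and the peaks up to 1 kb from it, and the part of position in these shares was not tested.

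Bookmarked lncRNA promoter peaks held more matches than those in asynchronous cells only, alongside their greater width. At least 1 match was in 98.0% and 87.6% of them, a difference of 10.4 points (1.81 to 13.4), and at least 2 in 78.4% and 57.9%. In the central 200 bp, a length equal for all peaks, the shares with a match were 80.4% and 78.5%. That difference of 1.94 points was within counting error (-11.2 to 11.1). Of the 97 peaks without a match 1 was bookmarked, and of the 119 with 4 or more 18 were (15.1%, 9.22 to 22.8), with median widths of 273 and 633 bp. Within the widest class the mean number of matches was 3.45 ± 2.17 (SD, 42 bookmarked peaks) and 3.58 ± 6.399 (SD, 186 others). The 186 include a single peak with 83 matches, without which their mean was 3.15 ± 2.59 (SD, 185 peaks), so the order of the means rests on that peak and the spreads overlap either way. That peak, at ENSG00000280224 on chromosome 22, was the widest lncRNA promoter peak of all at 1821 bp and was not bookmarked.

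Strings of other factors differed little between lncRNA promoter peaks and all other asynchronous peaks. The RUNX string AACCACA was in 14.5% of lncRNA promoter peaks and 13.6% of the others, a difference of 0.961 points (-1.31 to 3.56). For the ETS string AGGAAGT the difference was -1.24 points (-3.46 to 1.30) and for the AP-1 strings TGACTCA and TGAGTCA 1.77 points (-0.516 to 4.38). The E-box CAGCTG, a site of basic helix-loop-helix factors, was in 27.0% and 24.0%, a difference of 2.995 points (0.0401 to 6.16) whose interval only just left out zero. Against core promoter peaks alone, the RUNX string was more frequent by 5.08 points (2.52 to 7.87) and the AP-1 strings by 5.77 (3.21 to 8.57). The ETS and E-box differences from core promoters were within counting error, at 2.40 (-0.144 to 5.19) and 2.87 points (-0.531 to 6.41). The part of width and base composition in these differences was not tested. All strings were searched on both strands.

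Base composition placed lncRNA promoter peaks between core promoters and the rest. Their median GC content was 47.0%, against 50.3% at core promoters and 43.6% away from promoters. A ratio of observed to expected CpG over 0.6, a mark of CpG islands, was found in 8.96% of them (74 peaks), in 33.8% of core promoter peaks and in 1.30% of peaks away from promoters. Of the 74 CpG-rich lncRNA promoter peaks 1 was bookmarked (1.35%, 0.0342 to 7.30), and of the other 752 peaks 50 were (6.65%, 4.97 to 8.67). At core promoters 47 of 816 CpG-rich peaks were bookmarked (5.76%, 4.26 to 7.59), a share inside the wide interval of the lncRNA promoters.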

How the data were processed

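GATA2 ChIP-seq had been performed on asynchronous and mitotic K562 cells, with 1 library per condition. Per the labels and the study's methods, single-end reads of 75 nt were aligned to hg38 with BWA 0.7.12, uniquely mapped reads were kept, peaks were called with MACS2 2.1.0 and Genrich 0.6.1 (how both were combined is not given in the sources used here) and blacklisted peaks were removed. The deposited files by the authors hold genomic positions, chromosome, start and end, with no score, height or read count, so depth is unknown and widths depend on the caller. Input libraries were not used here.

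The deposited starts were raised by 1 base, and positions are given as 1-based. TSSs came from GENCODE release 44, and sequences from hg38. Peaks were assigned by their midpoint. Overlap required 1 shared base. Shares were given with exact binomial intervals, differences with Newcombe intervals and densities with exact Poisson intervals, at 95%, using Python 3.11.15, pandas 2.3.3, scipy 1.17.1 and pysam 0.24.0. Assignment, overlap and string counts were tested on simulated data. The 269 member genes with a symbol carried 268 distinct symbols, of which 254 were in the RefSeq gene table.

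The members, gene lists and strings were chosen with earlier results of these data known. Genes were named by rule: the 30 genes with the widest mitotic peaks, the 10 with most asynchronous peaks, the genes of the 10 widest asynchronous peaks, listed lncRNAs with a peak, and listed regulators as the nearest gene. Some genes and sequences that the rule names are not reported here. Genes outside it are said to be chosen after their values were seen, or are shown for their sequence. Alternatives changed the distance limits, the annotation, the overlap, the width and the strings searched.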

Additional observations from a re-analysis of the deposited data

How the results depend on the processing

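Across 12 alternative settings, 70 of 83 values of the main results stayed within their counting interval, or within 1.5 times for counts, and 13 moved. Only the differences in share bookmarked and in GATA matches have a direction, and each kept its sign in all 10 of its alternatives. With a limit of 500 bp the rule kept 547 asynchronous peaks and their median GC content was 47.6%. With 2 kb it kept 1319 peaks at 1115 genes, with a median GC content of 46.1%, a GATA match in 90.6% and a difference from other peaks of -2.48 points. Requiring a reciprocal overlap of 50% lowered the share bookmarked to 2.66%, as that definition allows fewer pairs. It does so for other peaks too, and the difference from them was within counting error. Of the asynchronous lncRNA promoter peaks of at least median width, 11.2% were bookmarked, and the difference from other peaks of that width was within counting error. A match was held by 95.2% of them, and the difference in matches was -1.66 points. Searching the central 200 bp gave 78.6% with a match, and searching GATAA alone gave 82.6%.

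The difference in share bookmarked was above 0 in all 10 alternatives (0.664 to 2.32 points), and its interval lay above 0 in 1 of them, the limit of 500 bp (0.405 to 4.82). The difference in GATA matches was below 0, with its interval, in all 10. Of the 53 genes with a mitotic peak, 42 stayed with a limit of 500 bp, 43 with 10 kb from protein-coding TSSs, and 48 to 53 under the other placements. No paired analysis was possible because each condition has 1 library, and for the same reason no library could be left out. Without scores, a stricter peak threshold could not be tried, and the mitotic list may miss weaker sites.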
